A study of Mus musculus with 4 samples.

Results

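Nonclassical monocytes are the blood monocytes that crawl along the inner wall of small vessels. Here they were selected on RNA, as the cell barcodes of mouse ankle synovium in which at least 3 of 5 genes, Ace, Eno3, Cd300e, Treml4 and Adgre4, had 1 or more UMI (a unique molecular identifier, which marks 1 captured RNA molecule). Of 14451 barcodes kept in 4 libraries, 842 met this rule. Kept barcodes had 300 or more genes and no more than 10% of UMIs from mitochondrial genes, and those outside the rule serve as the comparison.

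RNA and 92 antibody tags were counted in the same cells (CITE-seq, on the 10x Genomics 3' platform). Baseline mice had no treatment (day 0). Serum-transfer-induced arthritis, started by giving serum from K/BxN transgenic mice, was sampled at its peak on day 7, at its plateau on day 14 and after resolution on day 56. All groups were bone marrow chimeras with CD45.1 B6 marrow in CD45.2 B6 recipients, in which shielding of the ankle left recipient cells in the joint. Sorted cells were live and positive for CD45 and CD11b, and negative for CD177, Ly6C, Ly6G, CD64, SiglecF and MHC class II. In the sample titles, arthritis stages are marked "Clo-lip" without further explanation and baseline is not, so whatever the mark stands for and the stage cannot be told apart. Each stage had 1 library, and how many mice it pooled is not stated. No test across animals was therefore possible, and every interval below covers counting error only.

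Classical monocytes, which carry Ly6C and Ccr2, turn into nonclassical monocytes in bone marrow and blood, and the nuclear receptor Nr4a1 is required for this step. The mature cells lose Ly6C and Ccr2, hold on to the vessel wall through the integrin LFA-1 (CD11a with CD18) and the receptor Cx3cr1, and carry much CD43 and the immune complex receptor Fcgr4. K/BxN serum holds antibodies that form immune complexes in joints, and monocytes and macrophages of the joint take part in the arthritis that follows.

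The surface of these cells was read through antibodies that each carry a DNA tag. The tags of the 6 antibodies on which the surface results turn, taken from the deposited feature lists, are shown with 15 bases each. CD43 is the sialic acid-rich protein encoded by Spn. CD11a is the alpha chain of LFA-1 encoded by Itgal. CD45.1 and CD45.2 tell donor from recipient cells. Ly6C and CX3CR1 are opposite markers of the classical and nonclassical state.
CD43: ttggagggttgtgct
CD11a: agagtctccctttag
CD45.1: cctatggacttggac
CD45.2: caccgtcattcaacc
Ly6C: aagtcgtgaggcatg
CX3CR1: cactctcagtcctat

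Where 4 values follow each other below, they stand for baseline, peak, plateau and resolution. The nonclassical monocytes made up 26.1% of the kept barcodes at baseline (279 of 1071; exact Clopper-Pearson 95% interval 23.4 to 28.8%). They made up 1.53% at peak (91 of 5941; 1.24 to 1.88%) and 0.636% at plateau (18 of 2828; 0.378 to 1.00%). At resolution they made up 9.85% (454 of 4611; 9.0 to 10.7%). The share was highest before serum, low during joint inflammation, and higher again on day 56, though below the baseline share. These are shares of sorted cells, so a smaller share does not say that the number of cells in the joint was smaller.

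Depth moves with the call, since a deeper cell shows more genes. No nonclassical monocyte shared its barcode with a nonclassical monocyte of another library, although 27 barcodes were found in more than 1 library and 20 of them were kept. The median nonclassical monocyte had 6141, 9590, 6933 and 3344.5 gene UMIs, against 7950, 8239, 6782.5 and 5123 in the other barcodes. With every cell thinned to 3000 UMIs, and 149, 695, 574 and 1110 shallower cells left out, the shares were 14.0, 0.343, 0.266 and 5.57%. The same cells unthinned gave 26.7, 1.70, 0.799 and 7.26%. The order of baseline, resolution and then both arthritis stages was the same at either depth.

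Few cells showed the whole set of 5 genes. All 5 genes were seen in 68 baseline cells (of 279), 2 peak cells (of 91), 2 plateau cells (of 18) and 61 resolution cells (of 454). The share of nonclassical monocytes with 4 or 5 of the genes was 60.9, 36.3, 44.4 and 53.1%, with 95% intervals of 54.9 to 66.7, 26.4 to 47.0, 21.5 to 69.2 and 48.4 to 57.8%. The peak cells thus met the rule mostly with 3 genes, although their median depth was the highest of the 4 libraries. Just outside the rule, with exactly 2 of the genes, lay 122, 175, 51 and 172 barcodes, and just inside it, with exactly 3, lay 109, 58, 10 and 213.

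**Figure D1:**
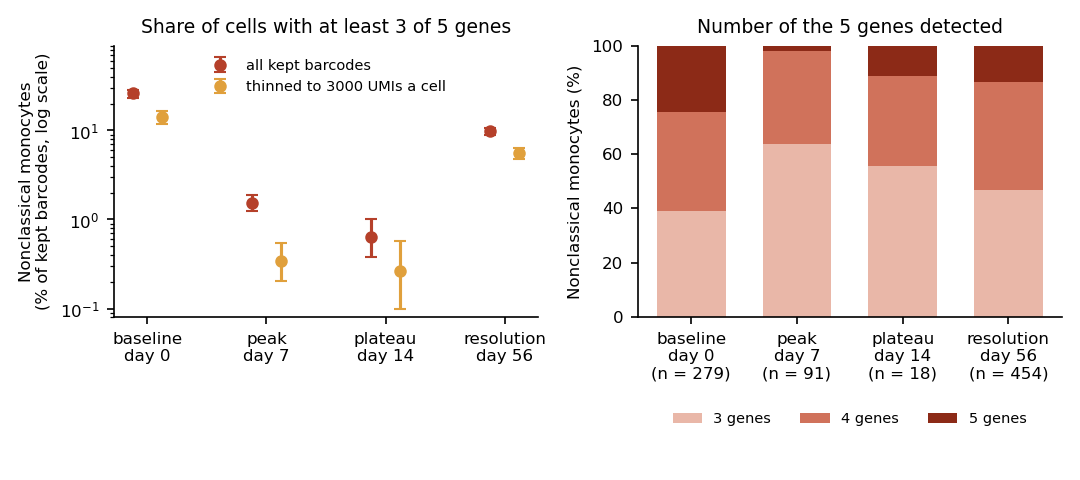
Left, share of nonclassical monocytes at each stage on a log axis, in percent of all kept barcodes (red) and of cells thinned to 3000 UMIs (yellow), with exact 95% intervals; right, percent of nonclassical monocytes in which 3, 4 or 5 of the genes were seen. The share is 26.1% at baseline and 0.636% at plateau, and cells with all 5 genes are few at peak.

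The 5 rule genes are given as a description, since they chose the cells. Levels are in CPM, counts scaled to a common total over the summed gene UMIs of each group. Ace, the angiotensin-converting enzyme, had 232, 146, 163 and 556 CPM in the nonclassical monocytes, against 28.0, 8.83, 6.03 and 18.9 CPM in the other barcodes. Cd300e, an activating receptor of monocytes, had 63.0, 9.56, 40.8 and 173 CPM in the nonclassical monocytes, against 0.821, 0.400, 1.77 and 1.67 CPM in the others. Treml4, a TREM-like receptor that binds dying cells, had 137, 120.3, 136 and 281 CPM, against 11.4, 6.18, 2.18 and 4.65 CPM in the others. Eno3, the muscle form of enolase, reached 535 CPM and Adgre4, an adhesion G protein-coupled receptor, 393 CPM in the nonclassical monocytes at resolution. In CPM each of the 5 genes was highest at resolution, where the cells were shallowest, and lowest at peak, where they were deepest. Since a cell needed 1 or more UMI of a gene to count it, these CPM move with depth. Per cell, all 5 genes were highest at baseline, with means of 2.86, 2.01, 2.00 and 2.34 UMIs for Ace and 2.63, 1.77, 1.78 and 1.66 UMIs for Adgre4.

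Cd300e was the gene most often missing. It was seen in 44.1, 13.2, 16.7 and 44.3% of the nonclassical monocytes, while Ace was seen in 92.5, 91.2, 94.4 and 89.6% of them. Among barcodes with resident macrophage markers, which should lack these genes, Ace was seen in 0 of 158, 0 of 61, 0 of 65 and 11 of 669 cells, at median depths of 8662.5, 7216, 5921 and 6324 UMIs. Reads of Ace were thus rare where they should be absent, and Cd300e, Treml4 and Adgre4 were each seen in at most 3.28% of these barcodes. Eno3 was seen in 3.80, 1.64, 4.62 and 5.08% of them, against 6.69, 2.56, 3.49 and 4.14% of all barcodes outside the rule. At plateau and resolution Eno3 was thus not rarer in them. In the nonclassical monocytes at peak, Cd300e was the member of the set with the fewest reads, in cells that held Ace, Treml4 and Adgre4.

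The start window of Adgre4 is shown because it was the only 1 of the 6 RefSeq start windows of rule genes (5 genes, Ace with a pair) that held any of 3 motifs chosen, after values were seen, for factors of this lineage. The motifs were AAAGGTCA for Nr4a1, GAGGAAGT for PU.1 and TTGCNNAA for C/EBP factors, searched on both strands. The window spans chr17:55749734-55750033 on the plus strand of GRCm38.p6 and runs from 250 bases before the start of the gene to 50 bases after it. Capitals mark a C/EBP match at position 205 and a PU.1 match at position 292, both on the opposite strand, counted from the 5′ end of the window.
Adgre4: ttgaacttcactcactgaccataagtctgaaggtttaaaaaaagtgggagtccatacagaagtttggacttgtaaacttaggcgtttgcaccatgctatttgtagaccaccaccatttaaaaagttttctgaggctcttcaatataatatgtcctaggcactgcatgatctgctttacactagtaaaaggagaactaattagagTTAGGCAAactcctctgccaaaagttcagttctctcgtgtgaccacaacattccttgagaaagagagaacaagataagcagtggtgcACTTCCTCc
Of all 32851 mouse windows in the RefSeq table, 1.51% held AAAGGTCA, 3.2% held GAGGAAGT and 10.8% held TTGCNNAA. A match describes letters and is not a binding site.

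The genes that set these cells apart from the other barcodes were read from summed counts, with 0.5 counts added for ratios on the log2 scale and genes of at least 30 UMIs compared. At least 2-fold higher levels in the nonclassical monocytes were found for 227 of 10313 genes at baseline, 549 of 12607 at peak, 1927 of 12028 at plateau and 898 of 12065 at resolution, which are 2.20, 4.35, 16.0 and 7.44% of the genes compared. At least 2-fold lower levels were found for 12.2, 16.3, 16.4 and 26.2% of them. The plateau share of higher genes rests on 18 cells with 220644 gene UMIs in all, against 3429225, 1255500 and 1911366 at the other stages. The same cells chose the rule, so these contrasts describe the group and carry no test.

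Among the transcription factors known for monocyte fate, Nr4a1, the factor that nonclassical monocytes depend on, had 896, 340.1, 793 and 1375 CPM in the nonclassical monocytes, against 424, 194, 167 and 364 CPM in the other barcodes. Its fold over the others was 2.11, 1.75, 4.74 and 3.78. Pou2f2, a POU-domain factor of lymphocytes and monocytes, was further apart, with 359, 192, 331 and 695 CPM, against 112, 36.8, 32.2 and 54.0 CPM in the others. Its fold was 3.22 at baseline (95% interval 2.96 to 3.51) and 12.9 at resolution (11.9 to 13.9).

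Tcf7l2, a partner of beta-catenin in Wnt signalling, had 46.9, 33.5, 31.7 and 143 CPM in the nonclassical monocytes, against 10.8, 11.5, 14.8 and 23 CPM in the others. Cebpb, which keeps these cells alive, was abundant in both groups, with 3708, 3959, 4682 and 5298 CPM, against 2315, 2793, 1801 and 1319 CPM. Cebpa, a factor of earlier myeloid cells, went the other way, with 13.1, 23, 18.1 and 19.4 CPM, against 28.5, 24, 32.9 and 62.9 CPM. Klf2, a factor of quiescent leukocytes, was close between the groups at baseline, at 828 CPM against 777 CPM in the others. Of the list of 12 fate factors, 11, 11, 11 and 10 were higher in the nonclassical monocytes, and 4, 3, 7 and 5 were at least 2-fold higher. A ratio above 1 was found for 39.9, 43.1, 54.0 and 35.2% of all genes compared. The list's median log2 ratio was 0.44, 0.45, 1.18 and 0.91, beside −0.12, −0.10, 0.09 and −0.31 over all genes compared.

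Most adhesion and migration genes stood higher, and the fold of Itgal and Spn was largest at resolution. Itgal, the CD11a chain of LFA-1, had 281, 186, 272 and 638 CPM in the nonclassical monocytes, against 69.2, 47.9, 21.1 and 30.3 CPM in the other barcodes. Its fold was 4.06 (3.66 to 4.51), 3.88, 12.9 and 21.1 (19.3 to 23). The widening came from both sides, since Itgal was higher in the nonclassical monocytes and lower in the other barcodes at resolution than at baseline. Spn, which encodes CD43, had 198, 71.7, 72.5 and 378 CPM, against 53.8, 11.4, 12.9 and 33.2 CPM in the others.

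S1pr5, the sphingosine phosphate receptor that lets these cells leave the bone marrow, was among the most restricted genes of the list. It had 45, 11.2, 31.7 and 85.8 CPM in the nonclassical monocytes, against 6.21, 0.418, 0.306 and 3.1 CPM in the others. Cx3cr1, the fractalkine receptor, had 309, 127, 295 and 301 CPM, against 161, 64.0, 48.7 and 61.3 CPM. Itga4, a chain of the integrin VLA-4, had 572, 232, 299 and 676 CPM, against 261, 92.1, 62.9 and 180.5 CPM. Itgax, the CD11c chain, stood at 25.7, 15.9, 22.7 and 97.8 CPM, against 5.51, 7.61, 7.12 and 39.6 CPM. Itgam, the CD11b chain on which the cells were sorted, was within 2-fold of the others at every stage, with 292, 329.7, 403 and 316 CPM against 280.5, 316, 225 and 293 CPM.

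Icam1, a ligand of LFA-1, was the adhesion gene with the lowest ratio at resolution, with 45.5 CPM in the nonclassical monocytes against 124 CPM in the others. Of the list of 17 adhesion and patrolling genes, 15 of 17, 14 of 17, 16 of 16 and 14 of 17 compared were higher in the nonclassical monocytes, with medians of 0.62, 0.47, 1.13 and 1.02 on the log2 scale.

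Fcgr4, the receptor for IgG2 immune complexes that marks mouse nonclassical monocytes, had 84.3, 85.2, 58.9 and 166 CPM in the nonclassical monocytes, against 15.1, 33.6, 20.9 and 7.46 CPM in the others. Its fold was 5.57 (4.51 to 6.91), 2.54 (2.07 to 3.08), 2.81 (1.49 to 4.85) and 22.2 (18.5 to 26.8). The other Fc gamma receptors did not share this gap. Fcgr1, the high-affinity receptor CD64, had 44.3, 245, 227 and 17.8 CPM in the nonclassical monocytes, against 45.8, 295, 134 and 16.4 CPM. It moved with the stage in both groups, and Fcgr3 and the inhibitory Fcgr2b were within 2-fold of the others at every stage.

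Fgr, a Src-family kinase that relays integrin and Fc receptor signals, stood higher, with 249, 202, 299 and 305 CPM in the nonclassical monocytes, against 102, 111, 62.9 and 69.2 CPM in the others. Of the 11 genes of Fc receptors and signalling, 8, 9, 11 and 9 were higher, with medians of 0.46, 0.41, 0.97 and 1.03 on the log2 scale. The start window of Fcgr4 is printed because this gene had the largest fold of the Fc receptors. It held 1 match to the PU.1 motif, on the opposite strand at position 227, in capitals, within chr1:171018676-171018975 on the plus strand of GRCm38.p6. The matches found among the genes with the highest ratios were 4 of 9 windows for PU.1, 1 of 9 for C/EBP and 0 of 9 for the Nr4a1 motif.
Fcgr4: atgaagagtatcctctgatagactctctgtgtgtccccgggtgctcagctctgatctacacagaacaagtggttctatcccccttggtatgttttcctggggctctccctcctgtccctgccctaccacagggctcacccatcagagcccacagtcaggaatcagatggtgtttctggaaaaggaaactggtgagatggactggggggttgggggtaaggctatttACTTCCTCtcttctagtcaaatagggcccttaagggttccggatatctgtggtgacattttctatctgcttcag

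Survival genes followed. Bcl2, which blocks cell death at mitochondria, had 73.8, 27.1, 54.4 and 148 CPM in the nonclassical monocytes, against 24.2, 6.96, 8.31 and 30.7 CPM in the others. Tnfrsf1b, the TNF receptor TNFR2, had 161, 145, 168 and 204 CPM, against 77.9, 88.0, 64.2 and 41.6 CPM. Csf1r, the receptor for the growth factor on which monocytes live, was closer, with 408, 352, 530.3 and 584 CPM against 327, 306, 395 and 366 CPM. Bcl2a1a and Bcl2a1b, which belong to a family of near-identical copies, were higher too, but their reads could be split between copies and their values are uncertain. Of 11 survival genes, 9, 10, 10 and 8 were higher, beside 39.9, 43.1, 54.0 and 35.2% of all genes compared. The list includes Bcl2a1b and Bcl2a1d of that uncertain family.

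By the rule that ranks genes on the smaller of the ratios at baseline and resolution, Slc12a2, a sodium, potassium and chloride cotransporter, led. It had 99.1, 27.1, 18.1 and 189 CPM in the nonclassical monocytes, against 8.21, 1.55, 3.81 and 9.01 CPM in the others, with folds of 12.1, 17.5, 4.75 and 21.0. Dusp16, a phosphatase of JNK and p38 kinases, had 87.5, 61.3, 90.6 and 238 CPM, against 16.3, 20.6, 12.9 and 19.6 CPM. Gngt2, a G protein gamma chain, had folds of 4.18, 3.33, 4.72 and 13.9. Ear2, an eosinophil-associated ribonuclease, had folds of 5.69, 7.73, 13 and 13.9, and since close copies of it exist its reads are uncertain. Cyfip2 and Spn, of which Cyfip2 belongs to the actin-regulating WAVE complex, were at least 3.63-fold and 3.68-fold higher at all stages. Ly6i, Cd300ld, Dusp5, Mdm1 and Grk3 completed the list of 15, with folds of 3.43 to 4.69 at baseline and 6.61 to 25.6 at resolution.

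Fabp4, a fatty acid carrier of macrophages and vessels, was higher at baseline, plateau and resolution but not at peak. It had 270.3, 37.4, 113 and 478 CPM in the nonclassical monocytes, against 40.8, 50.5, 4.29 and 69.0 CPM in the others, so at peak its level was lower than in the others. Pparg, the nuclear receptor that drives Fabp4 in macrophages, had 42.3, 13.5, 18.1 and 92.6 CPM, against 8.09, 3.55, 2.86 and 5.28 CPM. Lipid genes as a list did not move together. Of the 15 lipid genes, 9, 8, 10 and 9 were higher, with a median log2 ratio of 0.22, 0.03, 0.49 and 0.13. Lpl, lipoprotein lipase, was lower at all stages, with 80.2, 22.3, 40.8 and 56.0 CPM against 141, 47.0, 67.5 and 222 CPM.

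**Figure D2:**
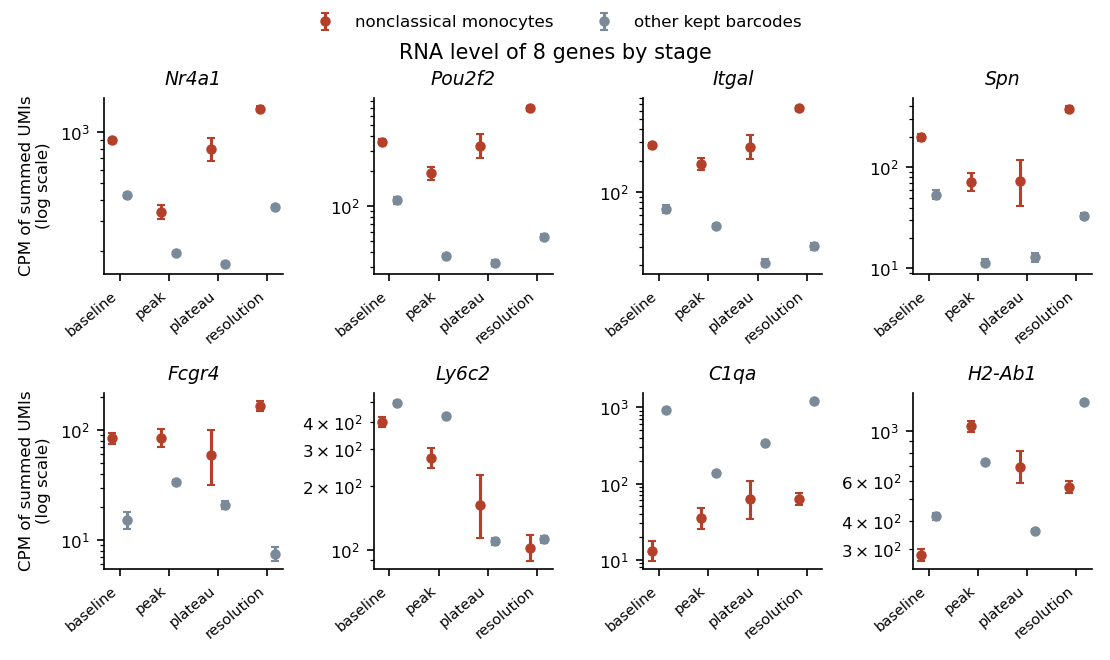
Levels of 8 genes in the nonclassical monocytes (red) and in the other kept barcodes (grey) at each stage, in CPM on log axes, with points for the summed counts and bars for exact 95% counting intervals. Itgal is at 281 CPM in the nonclassical monocytes at baseline and at 638 CPM at resolution, against 69.2 and 30.3 CPM in the others.

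Most genes of resident macrophages were low in the nonclassical monocytes. Vsig4, the complement receptor that marks lining macrophages, had 0.292, 0, 0 and 1.57 CPM, against 230.3, 8.53, 19.99 and 113 CPM in the others. Lyve1, a hyaluronan receptor, had 0.875, 0, 0 and 7.32 CPM, against 457, 12.8, 22.0 and 397 CPM. C1qa, a chain of the complement starter C1q, had 13.1, 35.0, 63.5 and 63.3 CPM, against 923, 139, 340.4 and 1211 CPM. The list of 18 resident macrophage genes had 17 lower genes at baseline and 17 at resolution, all at least 2-fold, with medians of −5.71 and −4.00 on the log2 scale, or −5.68 and −3.65 with the genes at 0 UMIs set to the floor of 3 counts. At peak and plateau the medians were −2.86 and −0.96, and −1.41 and −0.56 with genes at 0 UMIs set to that floor.

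Apoe, the lipid carrier that the same list holds, was the 1 compared gene of the list above the others at baseline, peak and resolution, and at plateau Fxyd2, Mertk and Selenop were above them too. Of these plateau values, 26 of the 27 Fxyd2 UMIs lay in 1 cell and Mertk rests on 2 UMIs. Apoe had 1969, 2259, 2017 and 2219 CPM in the nonclassical monocytes, against 1449, 2011, 1707 and 558 CPM in the others. Prg4, the lubricin of synovial lining cells, was lower at all stages, by 37.3-fold at baseline and 62.1-fold at resolution. Retnla, Slc7a2, Fxyd2, Gas6, Olfml3 and Anxa8, which complete the 10 genes with the lowest ratios, were 21.5- to 262-fold lower at baseline and 19.4- to 65.9-fold lower at resolution. Of 12 complement genes, 1, 2, 3 and 0 were higher in the nonclassical monocytes. Their median log2 ratio was −1.83, −0.66, −0.81 and −2.58, and −0.35 at plateau with genes at 0 UMIs set to the floor.

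**Figure D3:**
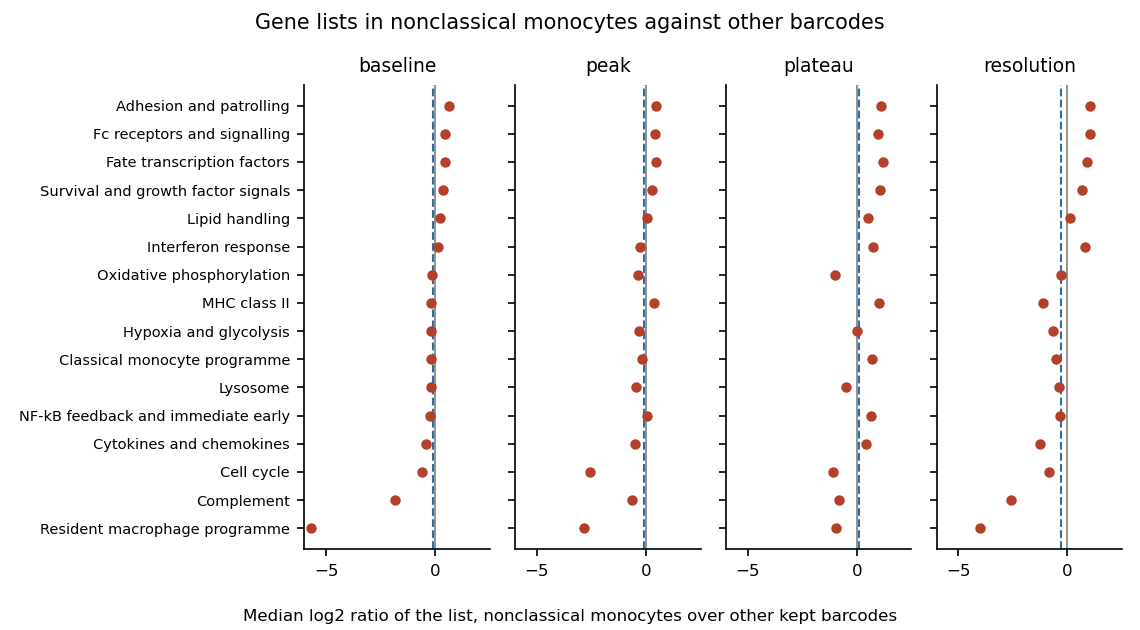
Median log2 ratio of each gene list, nonclassical monocytes over the other kept barcodes, at the 4 stages (red points), with a dashed line at the median of all genes compared. Adhesion genes are above 0 at all stages and resident macrophage genes below 0.

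Against the 368, 4195, 999 and 570 barcodes with at least 3 of 5 classical monocyte markers, the nearest cells in the joint, at least 2-fold higher genes were 2.24, 5.96, 11.5 and 5.71% of the genes compared, and lower ones 2.93, 7.38, 9.49 and 8.38%. Slc12a2 again led, with folds of 22.1, 42.9, 9.03 and 44.3. Tcf7l2 stood at 5.85, 11.7, 21.3 and 7.42 CPM in the classical barcodes, so its fold in the nonclassical monocytes was larger against them at baseline and resolution than against all others. The adhesion list had medians of 0.66, 0.52, 0.64 and 1.02, and the fate factors 0.39, 0.25, 0.34 and 0.63. Both list medians were thus above 0 against the classical barcodes at all 4 stages.

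In summed counts, the gap in classical genes between the nonclassical monocytes and the classical barcodes differed between stages. Ly6c2, which encodes Ly6C, had 402, 271, 163 and 103 CPM in the nonclassical monocytes, against 753, 577, 333 and 708 CPM in the classical barcodes. Ccr2, the chemokine receptor that brings classical monocytes to inflamed tissue, had 530.4, 853, 739 and 199 CPM, against 752, 1008, 958 and 884 CPM. Vcan, a matrix proteoglycan of classical monocytes, had 20.4, 312, 254 and 9.94 CPM, against 33.8, 463, 276 and 71.3 CPM. At peak and plateau Ccr2 and Vcan were closer to the classical level than at resolution. The 12 classical genes had medians of −0.50, −0.40, −0.28 and −1.81 against the classical barcodes. Depth differed between the stages, and its part in these values was not tested.

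At least 3 classical markers were found in 97, 66, 7 and 41 of the nonclassical monocytes, or 34.8, 72.5, 38.9 and 9.03%, against 46.5, 71.7, 35.6 and 13.7% of the other barcodes. At peak and plateau these shares were close to those of the other barcodes. The name nonclassical monocyte thus covers cells that hold classical genes too. Deeper cells show more markers of any kind, and the part of depth in this overlap was not tested. Plac8, which the list also holds, was higher in the nonclassical monocytes than in the classical barcodes at all stages, with 2914, 3466, 2769 and 2069.7 CPM against 2637, 2375, 1583 and 1807 CPM.

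Antibodies gave a readout that the rule did not use. Signals are in UMIs per 10000 antibody UMIs of each cell with at least 100 of them, which left 278, 91, 18 and 440 nonclassical monocytes. The median CD43 signal was 2745, 1602, 1550 and 3452 per 10000 in the nonclassical monocytes, against 978, 1355, 859 and 658 in the other barcodes. The share of nonclassical monocytes above the others' median was 93.9, 74.7, 88.9 and 99.5%. The groups were therefore nearly apart for CD43 at resolution and overlapped most at peak.

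CD11a was also higher, with less overlap. Its median was 1529, 1927, 1404 and 1463 per 10000 in the nonclassical monocytes, against 644, 1226, 427 and 74.6 in the others, and 97.5, 93.4, 100 and 100% of the nonclassical monocytes lay above the others' median. In summed counts CD11a was 2.03, 1.5, 2.66 and 5.49 times as high as in the others. These folds of summed counts were smaller than those of Itgal RNA at each stage, and in both readouts the largest was at resolution. The scales are unlike, and the CD11a medians at resolution, 1463 against 74.6, lay further apart than the sums. Whether protein differed less than RNA was therefore not settled.

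Ly6C protein split the baseline cells. The middle 50% of the baseline nonclassical monocytes ran between 104 and 1995 per 10000, around a median of 409, against a median of 1628 in the others. At the later stages the median was 190.1, 113 and 27.9 in the nonclassical monocytes, against 258, 80.5 and 16.1 in the others. So part of the baseline cells carried high Ly6C signal, although the sort had been set to leave out Ly6C-positive cells. CX3CR1 protein was low in both groups, with 19.3, 41.4, 46.1 and 27.0 per 10000 of the summed counts in the nonclassical monocytes, against 15.4, 40.4, 29.6 and 16.9 in the others. The list of antibodies used here has no isotype control, so a level that would count as background is not known, and the CD45 antibody read 0 in all cells.

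CD102, the adhesion protein ICAM-2, had 157, 179, 144 and 163 per 10000 of the summed counts in the nonclassical monocytes, against 130.2, 169, 103 and 88.9 in the others.

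In summed counts, antibodies against resident macrophage proteins were lower on the nonclassical monocytes at baseline, plateau and resolution. CD163, a haemoglobin scavenger receptor, had 23.0, 302, 36.3 and 38.4 per 10000 of the summed counts, against 392, 171, 138 and 574 in the others. Folate receptor beta had 11.5, 49.3, 25.6 and 22.8, against 129, 44.9, 82.9 and 181. The costimulatory protein CD86 had 33.6, 209, 374 and 65.4, against 114, 456, 545 and 248. For CD163 the medians over cells lay closer than the sums at these 3 stages. They were 11.97, 14.79 and 25.42 per 10000, against 16.79, 17.51 and 49.60 in the others. For folate receptor beta the medians were 2.83, 14.19 and 0, against 6.18, 14.47 and 33.22. At plateau 44.4% of the nonclassical monocytes lay above the others' median for CD163 and 50% for folate receptor beta, so typical cells there differed little. The peak value of CD163 rests on 1 cell, which held 4365 of the 5118 CD163 UMIs of that group, and the median cell had 5 UMIs against 4 in the others. Likewise 575 of the 836 folate receptor beta UMIs at peak lay in 1 cell, and there the median over cells was 7.58 per 10000 in the nonclassical monocytes, against 11.5 in the others.

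At resolution both surface markers were higher in barcodes with more of the rule genes. CD43 stood at 732, 1317, 2206, 3078, 3488 and 3569 per 10000 of the summed counts in barcodes with 0, 1, 2, 3, 4 and 5 of the genes. CD11a stood at 201, 528, 1028, 1404, 1548 and 1611. Pou2f2 RNA had 35.8, 110.4, 376, 659, 646 and 903 CPM in the same order. Barcodes with 2 genes were thus between the extremes for each readout, and the line between 2 and 3 cut through a gradient. Itgal had 622 CPM with 3 genes, against 302 CPM with 2, at resolution, 235 against 145 CPM at baseline and 154 against 133 CPM at peak. Median depth did not follow the same order at resolution, with 5235.5, 4933, 3190.5, 2975, 3219.5 and 4522 gene UMIs for 0 to 5 genes.

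**Figure D4:**
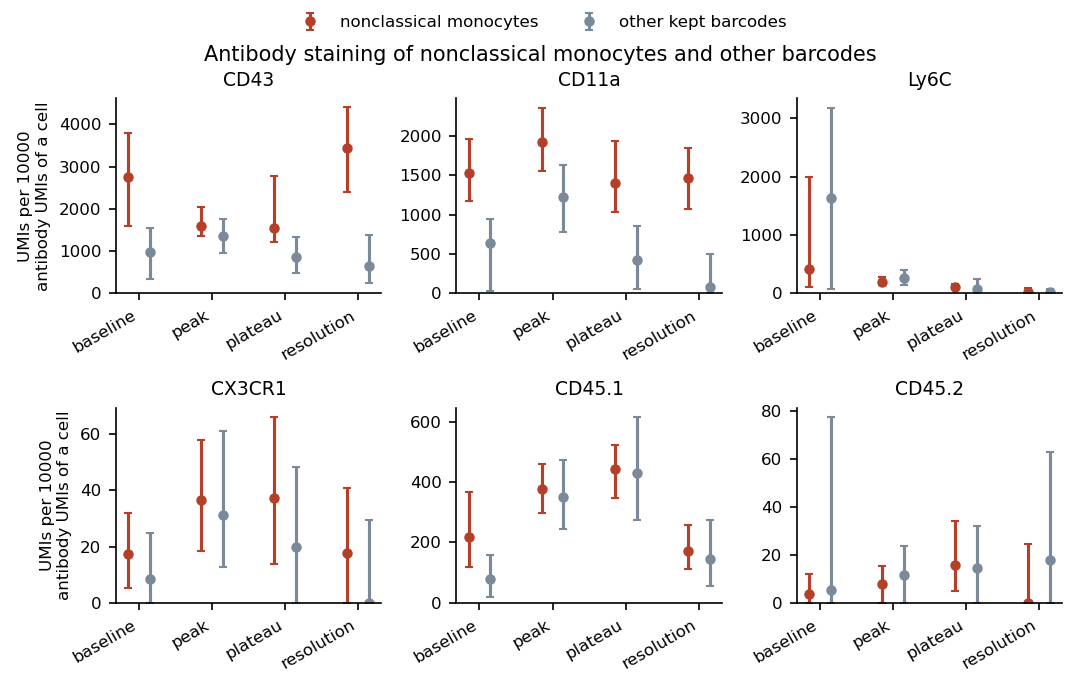
Signals of 6 antibodies per 10000 antibody UMIs of a cell in the nonclassical monocytes (red) and in the other kept barcodes (grey) at each stage, with points for medians over cells and bars from the lower to the upper quartile. CD43 and CD11a are higher in the nonclassical monocytes at all 4 stages, most so at resolution.

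Nearly all nonclassical monocytes that could be called came from donor marrow. A cell with at least 10 CD45.1 and CD45.2 UMIs was called donor where CD45.1 made up at least 80% of them and recipient where it made up at most 20%. Of the called nonclassical monocytes, donor cells were 250 of 252 (99.2%, 97.2 to 99.9%), 87 of 89 (97.8%, 92.1 to 99.7%), 18 of 18 (100%, 81.5 to 100%) and 207 of 214 (96.7%, 93.4 to 98.7%). These totals leave out 14, 2, 0 and 10 nonclassical monocytes with enough CD45 UMIs but a mixed share, between the limits. At least 10 UMIs of each CD45 form were found in 22, 3, 0 and 1 of the nonclassical monocytes. The other barcodes were donor in 68.2, 96.9, 93.1 and 71.2% of calls, and those with resident macrophage markers in 7.69, 4.44, 3.64 and 19.2%. The nonclassical monocytes were thus on the donor side at every stage, also at baseline, before serum was given.

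At resolution 230 of the 454 cells had too few CD45 UMIs for a call, against 13, 0 and 0 in the earlier libraries, with a median of 467.5 antibody UMIs in all. The classical barcodes were donor in 95.7, 99.3, 98.9 and 83.0% of calls, but 414 of the 570 at resolution had no call, and the 83.0% rests on 135 cells. Recipient nonclassical monocytes numbered 2, 2, 0 and 7, too few for a comparison with donor ones.

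Some of the nonclassical monocytes carried at least 3 of 5 markers of a further class, such as neutrophils, fibroblasts or osteoclasts. These were 47 of 279, 18 of 91, 5 of 18 and 8 of 454 cells. They were deep at the first stages, with median gene UMIs of 28990, 24480.5, 7960 and 6724.5, against 5116.5, 8566, 6672 and 3300.5 in the remaining nonclassical monocytes. They held 45.9, 36.7, 33.5 and 3.71% of all UMIs of the group, so summed levels at the first 3 stages rest on them in good part. Without them the adhesion list had medians of 0.89, 0.58, 0.94 and 1.02 and the fate factors 0.57, 0.51, 0.90 and 0.94 against the other barcodes.

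Neutrophil markers were found in 42, 8, 1 and 3 of these cells and osteoclast markers in 1, 9, 5 and 0. Neutrophil markers were thus the most common addition at baseline, and osteoclast markers at peak and plateau. The osteoclast shares were 0.358, 9.89, 27.8 and 0%, against 0.126, 10.2, 33.2 and 1.13% of the other barcodes. Those of neutrophil markers were 15.1, 8.79, 5.56 and 0.661%, against 12.1, 2.92, 0.498 and 0.241%. Markers of any further class were carried by 16.8, 19.8, 27.8 and 1.76% of the nonclassical monocytes, against 40.9, 18.4, 39.6 and 24.6% of the other barcodes. Ngp, a granule protein of young neutrophils, had 4635 CPM in all nonclassical monocytes at baseline and 1107 CPM without the marker-carrying cells. The summed neutrophil markers stood at 22149, 147, 517 and 2440 CPM, against 27192, 765, 186 and 945 CPM in the other barcodes. Basophil markers were at 0 UMIs in the nonclassical monocytes of all 4 libraries, as were Cd3e, Cd3g, Trac and Lck of T cells. No doublet caller was run, and whether the marker-carrying barcodes hold more than 1 cell was not tested.

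Between stages, the nonclassical monocytes of the 3 arthritis libraries were each set against those of baseline. At least 2-fold higher genes at peak were 4.47% of 7779 genes compared and lower ones 8.23%. At plateau these were 11.3 and 9.78% of 7292 genes (823 higher and 713 lower, or 492 and 988 with TMM totals), and at resolution 2.92 and 4.39% of 8141 genes. Any higher level than at baseline was found for 44.6, 58.4 and 53.1% of genes at peak, plateau and resolution. The median log2 ratio of all genes was −0.07, 0.15 and 0.03. Baseline is shared by all 3 comparisons. Depth differs between the libraries, so 3 further readings are set beside these values. The first leaves out the marker-carrying cells. The second keeps the same cells and gives each equal weight. The third thins every barcode to 3000 UMIs and applies the rule again, which leaves 129, 18, 6 and 195 nonclassical monocytes. It changes which cells are chosen as well as their depth, and fewer genes of a list then reach 30 UMIs.

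At peak the antigen presentation genes stood higher. H2-Ab1, an MHC class II chain, had 1044 CPM at peak, against 284 CPM at baseline, a fold of 3.68 (3.38 to 4.00), and Cd74, the chaperone of class II, had 5544 CPM, against 2576 CPM. All 9 MHC class II genes compared were higher, 5 of them at least 2-fold, with a median log2 ratio of 1.11. In the other barcodes the list's own median for peak over baseline was 0.70. Without the marker-carrying cells the median in the nonclassical monocytes was 1.03, with equal weight per cell it was 1.21, and in the 18 peak cells chosen again at 3000 UMIs it was 2.06 over 8 genes. Against the other barcodes of the same stage, all 10 class II genes were higher in the nonclassical monocytes at peak and 2 of 10 at resolution.

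Interferon and glycolysis genes also stood higher at peak, in both groups of cells. Isg15, an interferon-induced ubiquitin-like protein, had 532 CPM at peak, against 121 CPM at baseline, a fold of 4.41 (3.89 to 4.99). Of 20 interferon genes compared, 18 were higher and 10 at least 2-fold, with a median of 0.98, beside 1.38 in the other barcodes. Hif1a, the oxygen-sensing factor, had 394 CPM, against 103 CPM, and 12 of 13 hypoxia and glycolysis genes were higher. That list's median was 0.92, beside 1.06 in the others, and it was 0.78 in the nonclassical monocytes with equal weight per cell and 0.33 over 8 genes in the 18 cells chosen again at 3000 UMIs.

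Inflammatory mediators were mixed. Il1b, the cytokine interleukin-1 beta, had 1234, 3767, 4818 and 1076 CPM in the nonclassical monocytes, against 845, 2845, 1692 and 543 CPM in the other barcodes, so it was higher in them at each stage. Cxcl2, a chemokine for neutrophils, had 202, 1739, 2851 and 392 CPM, against 589, 2465, 2056 and 1624 CPM. Of 19 cytokine and chemokine genes compared with baseline, 12 were higher at peak, 8 of them at least 2-fold, and 3 were at least 2-fold lower. Ccl7, a monocyte chemokine, was 17-fold higher at peak, but 146 of its 230 UMIs lay in 1 cell and the fold was 3.11 without the marker-carrying cells. Spp1, the matrix protein osteopontin, had 656 CPM at peak, against 6.12 CPM at baseline, and Timp1, an inhibitor of matrix proteases, had 157 CPM, against 2.04 CPM. The 5 cells with the most UMIs held 72.5% of the Spp1 UMIs and 66.5% of the Timp1 UMIs at peak. Without the marker-carrying cells Spp1 was at 639.7 CPM and Timp1 at 71.8 CPM at peak, and both were lower than in the other barcodes of that stage, which had 2071 CPM of Spp1 and 333 CPM of Timp1.

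Fate and adhesion genes outside the rule stood lower at peak than at baseline. Nr4a1 was at 0.379 times its baseline level (0.342 to 0.420), Pou2f2 at 0.534, Spn at 0.362 and Cx3cr1 at 0.412. With equal weight per cell these were 0.353, 0.561, 0.328 and 0.444, and in the cells chosen again at 3000 UMIs 0.359, 0.348, 0.454 and 0.363. The reading without the marker-carrying cells is not given for these genes. Over the lists, 4 of 12 fate factors and 3 of 17 adhesion genes were higher than at baseline, with medians of −0.45 and −0.33. In the other barcodes the same lists had medians of −0.27 and −0.52, so these shifts were not confined to the nonclassical monocytes. The cell cycle list was lower, with a median of −4.39, or −4.10 with the gene at 0 UMIs set to the floor, −3.14 without the marker-carrying cells and −3.50 with equal weight per cell. In the cells chosen again at 3000 UMIs only 1 gene of that list could be compared, at −0.90. Mki67, a marker of dividing cells, had 2.39 CPM at peak, against 80.5 CPM at baseline.

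The plateau rests on 18 cells. MHC class II genes were higher than at baseline for 9 of 9 compared, with a median of 1.07, beside −0.20 in the other barcodes. Cytokine and chemokine genes had a median of 1.30, with 14 of 17 higher, beside 1.07 in the others. Il1b, with 4818 CPM at plateau against 1234 CPM at baseline, was among them.

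At resolution several of the same genes stood above baseline, though Cx3cr1 was not among them. Nr4a1 was 1.53-fold higher than at baseline (1.46 to 1.62), Pou2f2 1.93-fold, Itgal 2.27-fold, Spn 1.91-fold and Tcf7l2 3.05-fold (2.5 to 3.73). With equal weight per cell these folds were 1.29, 1.48, 1.68, 1.30 and 1.78, and in the cells chosen again at 3000 UMIs they were 1.08, 1.15, 1.31, 1.05 and 1.22. The size of these differences thus varied with the reading, and all 5 genes were above baseline in each reading given here. The reading without the marker-carrying cells is not given for these genes. Over all genes it left 153 at least 2-fold higher and 110 lower than at baseline, against 238 and 357 with those cells. In all nonclassical monocytes, 10 of 12 fate factors and 14 of 17 adhesion genes were higher. Their medians were 0.54 and 0.31, beside −0.11 and −0.02 in the other barcodes. With equal weight per cell these medians were 0.40 and 0.18, and in the cells chosen again at 3000 UMIs they were 0.18 and 0.0056. The median depth was 3344.5 UMIs at resolution, against 6141 at baseline.

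Classical genes were all lower at resolution than at baseline, 0 of 12 being higher, with a median of −1.58 beside −1.40 in the other barcodes. Ly6c2 was at 0.255 times its baseline level, Ccr2 at 0.375 and F13a1, a coagulation factor chain of monocytes, at 0.222. These differences shrank without the marker-carrying cells, to 0.343 for Ly6c2 and 0.479 for Ccr2. With equal weight per cell they were 0.319 for Ly6c2 and 0.464 for Ccr2, with 0 of 12 genes higher and a list median of −1.13. In the cells chosen again at 3000 UMIs they were 1.03 for Ly6c2 and 0.886 for Ccr2, with a list median of 0.11 over 8 genes. Baseline Ly6c2 was at 64.6 CPM in those cells, against 402 CPM in all nonclassical monocytes of baseline. The interferon list was lower too, with 0 of 18 genes higher and a median of −0.92, which was −0.80 with equal weight per cell and −0.010 over 6 genes in the cells chosen again. The lower levels at resolution thus held in the same cells with equal weight and were not seen in the smaller set chosen at 3000 UMIs. The parts of depth and of the choice of cells in this were not tested.

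A small set of macrophage genes stood higher at resolution. Fxyd2, a regulator of the sodium pump found in synovial macrophages, had 144 CPM, against 4.67 CPM at baseline, and Pf4, a chemokine of platelets and macrophages, had 129 CPM, against 4.96 CPM. Both were lower in the nonclassical monocytes than in the other barcodes of the same stage, where Fxyd2 reached 2801 CPM and Pf4 1135 CPM. For Fxyd2 and Pf4, the further readings and the spread of UMIs over cells are not given here. C1qa was 4.82-fold higher than at baseline, and 1.65-fold without the marker-carrying cells. Lmna, the nuclear lamin A, was 5.64-fold higher, and Itgax, the CD11c chain, 3.81-fold (2.94 to 4.97), or 2.38-fold with equal weight per cell and 1.30-fold in the cells chosen again at 3000 UMIs. The largest differences in the other direction were in granule genes of neutrophils. Ngp stood at 201 CPM, against 4635 CPM at baseline, and in the cells chosen again at 3000 UMIs at 37.6 CPM, against 36.2 CPM.

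**Figure D5:**
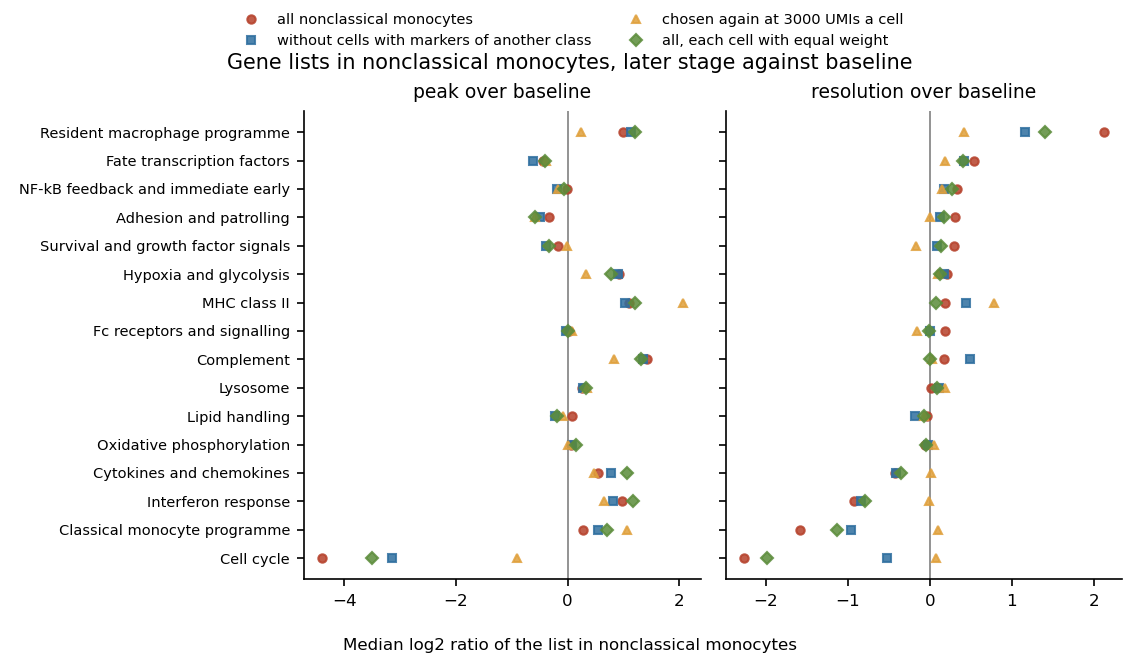
Median log2 ratio of each gene list in the nonclassical monocytes of the peak and resolution libraries over those of baseline, for all cells (circles), without cells that carry markers of another class (squares), with equal weight per cell (diamonds) and in the cells chosen again after thinning to 3000 UMIs (triangles). MHC class II genes are above 0 at peak in all 4, and classical monocyte genes at resolution are at −1.58, −1.13 with equal weight and 0.11 in the cells chosen again.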

How the data were processed

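CITE-seq libraries of 4 stages were analysed from the raw UMI counts per gene (32285) and antibody (92) in each barcode. The authors deposited these counts without normalization. Cell Ranger 6.1.2 is named per the file headers. The mm10 build and Seurat 4.4.0, with no step for it, come from the submitters' processing notes. The 4 libraries held 1128, 6490, 3104 and 4779 barcodes, of which 1071, 5941, 2828 and 4611 passed the filters.

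Counts were summed over the cells of a group. Ratios used CPM of these sums with 0.5 counts added for log2 values, and genes with at least 30 UMIs in both sums together. A gene was called at 2-fold or more. Intervals of folds are exact conditional Poisson intervals and those of shares exact Clopper-Pearson intervals, both at 95%, and cover counting error only. With 1 library per stage no p-value was computed. A class other than the nonclassical monocytes had at least 3 of 5 markers of its own. No doublet caller was run. As alternatives, cells with both CD45 forms, the deepest cells and nonclassical monocytes with markers of another class were left out in turn. The ratio and thinning scripts were tested on simulated data.

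The cells, gene lists and markers were chosen with earlier results of these data known. Genes were named by rank: the 15 highest and 10 lowest against the other barcodes by the smaller of the baseline and resolution ratios at 50 CPM or more, the 6 highest and 6 lowest against classical barcodes, and the extremes of each later stage over baseline. From each list the extreme and most abundant genes were named, and further list genes were named for known roles after their values were seen. Recipient cells were not compared with donor ones, since each library held fewer than 20. Start windows and gene symbols came from RefSeq tables of GRCm38.p6; 9 of the 15 highest genes had a window. Analyses used Python 3.11.15, NumPy 2.4.6, SciPy 1.17.1, pandas 2.3.3, and edgeR 4.0.16 in R 4.3.3 for TMM totals.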

Additional observations from a re-analysis of the deposited data

Results flagged for a closer look

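In summed counts the CD163 antibody was higher in the nonclassical monocytes than in the other barcodes at peak, with a log2 ratio of 0.82. It was lower at baseline, plateau and resolution, with −4.09, −1.92 and −3.90. At peak 4365 of the 5118 CD163 UMIs lay in 1 cell, and the median was 5 UMIs in the nonclassical monocytes, against 4 in the others. The Tim4 antibody, against a phosphatidylserine receptor of resident macrophages, did the same, with a log2 ratio of 0.72 at peak and −2.65, −2.34 and −3.03 at the other stages. Here 457 of 538 UMIs at peak lay in 1 cell.

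The list of classical monocyte genes had a median log2 ratio of 0.69 over the other barcodes at plateau, and −0.20, −0.19 and −0.51 at baseline, peak and resolution. The plateau value rests on 18 cells. None of these differences between stages was tested, since each stage had 1 library.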

How the results depend on the processing

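No paired analysis was possible because each stage had 1 library and its replicate number 1 is only a name. With at least 2 rule genes the shares at baseline, peak, plateau and resolution were 37.4, 4.48, 2.44 and 13.6%, and with at least 4 they were 15.9, 0.555, 0.283 and 5.23%. Thinning to 3000 UMIs gave 14.0, 0.343, 0.266 and 5.57%, and thinning to 1500 gave 8.36, 0.0530, 0.0807 and 4.68%, so the plateau share was above the peak share at 1500 UMIs. Leaving out nonclassical monocytes that carry markers of another class gave shares of 22.7% at baseline and 1.23% at peak. Such cells among the other barcodes were kept. With at least 4 rule genes the donor share at peak was 100%.

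With genes of at least 10 UMIs, 368 genes were at least 2-fold higher and 1973 lower than in the other barcodes at baseline, 1051 higher at peak and 3594 higher at plateau. Over baseline, 581 were then higher and 1235 lower at peak, 1561 and 1112 at plateau, and 533 and 728 at resolution. Without the marker-carrying cells 342 were higher at baseline, and 153 were higher and 110 lower at resolution over baseline. TMM totals gave 492 higher and 988 lower genes at plateau over baseline, against 823 and 713 with plain totals, and the median over all genes was −0.09 in place of 0.15. Against the other barcodes the medians over all genes with TMM totals were −0.01, −0.12, −0.01 and −0.16. No list median of at least 2-fold turned sign with TMM totals, and smaller ones were not checked for sign.

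Depth matching at 3000 UMIs, with the rule applied again, left 129, 18, 6 and 195 cells and so changed the cells as well as their depth. It turned the sign of the cell cycle list against the other barcodes at peak (0.29) and plateau (1.37) and of MHC class II at plateau (−0.11). Over baseline it turned the resident macrophage list at plateau (−0.12), and the classical list (0.11) and the cell cycle list (0.079) at resolution. At plateau over baseline the resident list was at −0.37 and the cell cycle list at 0.22 without the marker-carrying cells, and complement at −0.18 with 4 rule genes. Among genes, Bcl2a1a at plateau was at −0.0065 with 2 rule genes and Retnla at 0.33 with 4. Depth matching put Retnla at 0.22 at peak and 2.21 at plateau, Slc7a2 at 0.27 at peak, Anxa8 at 0.048 at peak and 0.90 at plateau, and Ngp at 0.038 at resolution over baseline. Retnla and Anxa8 had 0 UMIs in the nonclassical monocytes at both stages. With a median centred log ratio, antibody ratios were 0.25 and 0.71 for CD61 at peak and plateau, 0.036 for Tim4, 0.0079 for CD45.2 and −0.30 for Ly6G at plateau, and 0.68 for CD11c at resolution. Without the marker-carrying cells Ly6G at plateau was at −0.53. The cause was not tested for any of these. Among values of at least 2-fold in the main settings, 9 list medians, 8 gene values and 7 antibody values turned sign. A change of sign in smaller values was not counted. The 18 plateau cells limit every value of that stage.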
